A study of Homo sapiens with 8 samples.

Results

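The miR-132/miR-212 locus consists of 2 microRNA hairpins, MIR132 and MIR212, that lie 262 bases apart on chromosome 17. Its 4 mature products, hsa-miR-132-3p, hsa-miR-132-5p, hsa-miR-212-3p and hsa-miR-212-5p (prefix left out from here on), were taken by name from the 2575 mature miRNA names of the count files, and all 4 were present. Counts came from small RNA libraries of HCT116, an established human colorectal cancer cell line, used between passages 16 and 19. The treated group is 4 libraries of cells exposed for 6 hours, at a ratio of 500 bacteria to 1 cell, to ETBF, the toxin-secreting (enterotoxigenic) form of the gut anaerobe Bacteroides fragilis. The other 4 libraries are of control cells, titled untreated, which per the labels' protocols received bacterial medium with no bacteria in it. The labels do not say whether each replicate was its own culture. The p-values here therefore reflect only how these libraries vary, and that variation may be technical. Exposure itself could not be checked from miRNA counts.

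Each miRNA hairpin is cut from a longer primary transcript and then diced into a 5p and a 3p strand, of which one is usually retained in the silencing complex and the other lost. The retained strand pairs with messenger RNAs mainly through its seed, bases 2 to 8, and lowers their translation and stability. Transcription of the miR-132/miR-212 locus is driven by the cAMP-responsive factor CREB in neurons, where miR-132 promotes dendrite growth, and it is induced by endotoxin in monocytes. The coactivator p300 is a known target of miR-132.

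The sequences are shown because the 2 hairpins give one pair of products that share a seed and one pair that does not. The mature sequences below are those of RefSeq on build GRCh38.p14, with the seed in capitals.
hsa-miR-132-3p: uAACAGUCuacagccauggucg
hsa-miR-212-3p: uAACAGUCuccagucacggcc
hsa-miR-132-5p: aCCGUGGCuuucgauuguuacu
hsa-miR-212-5p: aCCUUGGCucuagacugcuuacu
The 3p arms, the strands through which the locus is best known, have the same seed, and no other mature miRNA in the RefSeq table carries it. They were identical at 17 of the 21 positions compared, including the first 9 bases. Counted from 1 at the 5′ end, with the base of miR-132-3p first, they differ by A10C, C14U, U17C and U20C. Compared position by position without gaps, the 5p arms were identical at 14 of 22 positions. MiR-212-5p has 23 bases and miR-132-5p has 22, and both end in the same run of bases. An alignment that allows a gap would therefore match more positions. The 5p arms have different seeds through the change G4U, with the base of miR-132-5p first. Reads of the 4 arms can therefore be told apart by sequence when the read covers these positions, although which aligner was used, and with which mismatch setting, is not stated in the sources at hand.

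In RefSeq both hairpins are on the minus strand, MIR132 at chr17:2049908-2050008 and MIR212 at chr17:2050271-2050380 on GRCh38.p14, whereas the authors counted on GRCh37.p5. The hairpin sequences are given with the mature arms in capitals, 5p arm first, to show how the arms sit in each stem.
MIR132: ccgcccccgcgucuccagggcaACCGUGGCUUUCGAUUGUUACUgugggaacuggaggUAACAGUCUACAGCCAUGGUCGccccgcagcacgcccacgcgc
MIR212: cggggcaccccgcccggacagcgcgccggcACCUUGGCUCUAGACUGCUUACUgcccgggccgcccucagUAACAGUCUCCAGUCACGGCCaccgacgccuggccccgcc
The 101-base MIR132 hairpin has 65.3% GC and the 110-base MIR212 hairpin has 73.6%, while the mature arms lie between 45.5% and 57.1%. In gene order the pair stands between the protein-coding genes OVCA2 and HIC1, a zinc finger tumour suppressor, with the long non-coding RNA LOC124903896 next to MIR132.

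Library totals ran from 2591655 to 4706156 counts with ETBF and from 5243400 to 6522542 in controls, so each ETBF library was shallower than each control. The epithelial markers miR-200c-3p, miR-141-3p, miR-200b-3p, miR-192-5p and miR-194-5p were all counted, and their summed level was 16688 to 19847 CPM with ETBF and 19943 to 21780 CPM in controls. CPM is a library's count divided by its total and by its TMM factor, which aligns the bulk of the miRNAs between libraries, on the usual CPM scale. Of 11 markers of blood, endothelium, stroma, muscle and neurons, 10 were among the names, with sums of 8887 to 11058 CPM with ETBF and 9596 to 11682 CPM in controls. The neuronal miR-124-3p had 0 counts in all libraries and the myeloid miR-223-3p 2 counts with ETBF and 1 in controls. Most of the sum was miR-9-5p, but other markers were counted too. The endothelial miR-126-3p averaged 1131 CPM in ETBF libraries and 1520 CPM in control libraries. MiR-145-5p was at 155 and 152 CPM, miR-143-3p at 95.8 and 107 CPM, and miR-486-5p at 35.4 and 37.8 CPM, ETBF first. MiR-451a was at 29.4 CPM (SD 19.8) and 7.24 CPM (SD 1.97), so its ETBF libraries were uneven, and miR-142-3p was at 12.8 and 12.5 CPM. MiR-1 was scarce, with 29 counts with ETBF and 37 in controls. Of the 12 markers of either kind that could be tested, miR-451a of red blood cells rose, and the epithelial miR-200c-3p and miR-192-5p and the endothelial miR-126-3p fell. Over all 480 tested miRNAs, 34.4% were called in either direction and 14.6% were called lower with ETBF. The part of these marker levels in the results was not tested.

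The products of the miR-132/miR-212 locus were less abundant after ETBF. Both arms of miR-132 and the 5p arm of miR-212 fell, by 1.35-fold to 1.91-fold, and miR-212-3p was too scarce to test. Calls were frequent in these data: of the 480 miRNAs that passed the expression filter, 34.4% were called in either direction and 14.6% were called lower with ETBF. The summed level of the 4 arms was 58.5 ± 4.05 CPM in ETBF libraries and 88.8 ± 3.14 CPM in control libraries (SD, n = 4 each), a log2 ratio of -0.60. All 4 ETBF sums, from 55.0 to 64.2 CPM, lay below all 4 control sums, from 84.5 to 92.0 CPM. Among single miRNAs, 15.6% had groups that did not overlap and were lower with ETBF. No test was made on the sum, because the members were chosen with results of these data known. In RNA from whole cultures, fewer cells that express a miRNA and less of it per cell cannot be told apart.

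**Figure D1:**
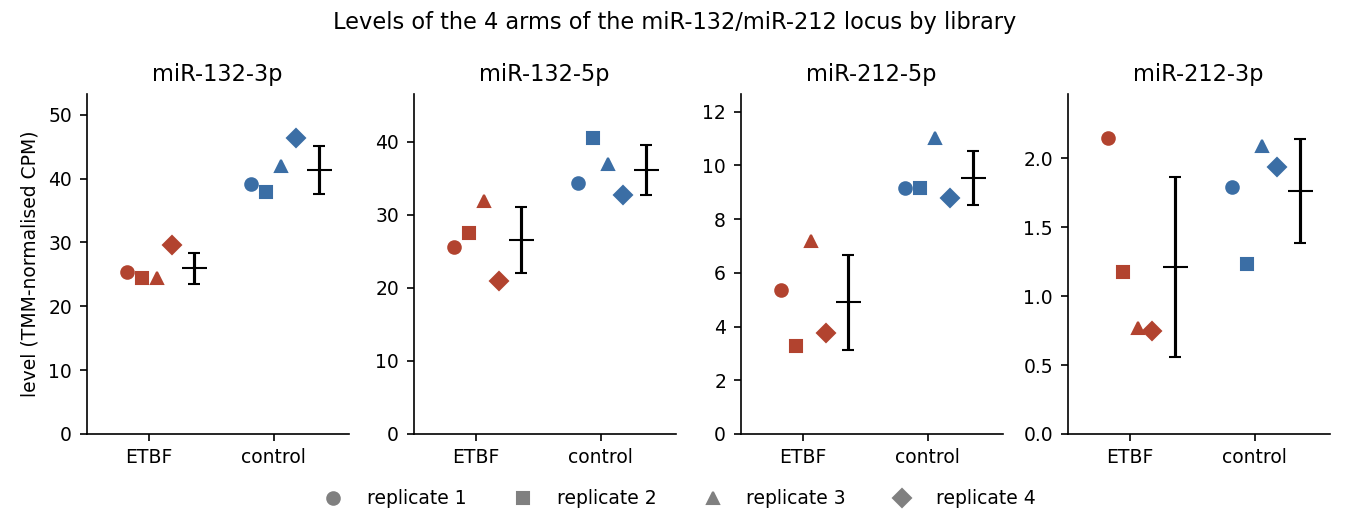
Level of each arm (TMM-normalised CPM, linear axes from 0) in the 4 ETBF libraries (red, left) and the 4 control libraries (blue, right). Symbols mark replicate numbers and the black bars show mean and SD. The groups are apart for miR-132-3p, miR-132-5p and miR-212-5p and overlap for miR-212-3p.

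MiR-132-3p, the canonical product of the locus, had the lowest adjusted p of the 3 tested arms. It was at 25.4, 24.4, 24.4 and 29.6 CPM in ETBF replicates 1 to 4, against 39.2, 37.9, 42.0 and 46.4 CPM in control replicates 1 to 4. Every ETBF library lay below every control, and the highest ETBF value was that of replicate 4. The underlying reads numbered 118, 104, 95 and 79 with ETBF and 197, 215, 221 and 311 in controls. Mean levels were 25.9 ± 2.46 CPM in ETBF libraries and 41.4 ± 3.77 CPM in control libraries (SD, n = 4 each), a 1.61-fold fall. The log2 fold change was -0.68 (SE 0.11, adjusted p = 0.000189 by edgeR's quasi-likelihood test with Benjamini-Hochberg adjustment over all 480 miRNAs tested). The call was kept in all 21 alternative settings.

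The partner strand miR-132-5p, which is ordinarily taken as the discarded one, fell too, with a smaller fold change than the 3p arm, a difference that did not pass the test of arm ratios given with the strand shares. Its level was 25.6, 27.5, 31.8 and 21.0 CPM in ETBF replicates 1 to 4, against 34.4, 40.5, 36.9 and 32.7 CPM in control replicates 1 to 4. The groups came close but did not overlap: the highest ETBF library, replicate 3, lay just under the lowest control, replicate 4. Mean levels were 26.5 ± 4.51 CPM in ETBF libraries and 36.1 ± 3.40 CPM in control libraries, a 1.35-fold fall (log2 fold change -0.44, SE 0.13, edgeR adjusted p = 0.0132). This call was not kept in every random draw at reduced depth. When all libraries were thinned at random to the smallest total, the log2 fold change was -0.26 (edgeR adjusted p = 0.336). In 2 further draws, added after this was seen, it was -0.35 (adjusted p = 0.0882) and -0.55 (adjusted p = 0.0137).

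MiR-212-5p, the more abundant product of the MIR212 hairpin here, had the largest fold change and the largest SE of the 3 tested arms. It was at 5.37, 3.29, 7.19 and 3.74 CPM in ETBF replicates 1 to 4, against 9.15, 9.16, 11.0 and 8.80 CPM in control replicates 1 to 4. All ETBF libraries lay below all controls, with a wide spread among the ETBF libraries, in which it rested on 25, 14, 28 and 10 reads. The control reads numbered 46, 52, 58 and 59. Mean levels were 4.90 ± 1.77 CPM in ETBF libraries and 9.53 ± 1.01 CPM in control libraries, a 1.91-fold fall (log2 fold change -0.94, SE 0.23, edgeR adjusted p = 0.00391). After thinning the value was -0.60 (adjusted p = 0.169), and in the 2 further draws it was -1.06 (adjusted p = 0.00904) and -0.99 (adjusted p = 0.0209).

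The arm miR-212-3p, which carries the same seed as miR-132-3p, was close to the limit of detection. It had 10, 5, 3 and 2 reads in ETBF replicates 1 to 4 and 9, 7, 11 and 13 reads in control replicates 1 to 4, or 0.749 to 2.15 CPM with ETBF and 1.23 to 2.09 CPM in controls. The groups overlapped, because ETBF replicate 1 had the highest level of all 8 libraries. The level that 3 reads give, which is the most that a library with none could hide, was 0.645 to 1.12 CPM in ETBF libraries and 0.447 to 0.597 CPM in control libraries. ETBF replicate 3 was at this limit, ETBF replicate 4 under it, and the other 6 libraries above it. Over the pooled reads, 20 with ETBF and 40 in controls, the ratio of ETBF to control was 0.733 with a 95% interval of 0.406 to 1.28, an interval for counting error only. Without the expression filter, where it could be tested, miR-212-3p was at -0.50 (SE 0.48, edgeR adjusted p = 0.627), so a difference was not detectable at this depth. Without ETBF replicate 1 the log2 ratio of its group means was -0.98, against -0.54 with all libraries.

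The fall of these arms stood against a broad response. Of all tested miRNAs 95 were called higher and 70 lower, so that 57.6% of the calls were higher. With upper-quartile scaling 71 were higher and 89 lower (44.4% higher), and after removal of each library's trend with GC content 80 were higher and 91 lower (46.8% higher). All 3 tested arms of the locus were among those called lower, and since they come from 1 locus they are not independent of each other. Ranked by the size of the fall among the 70, miR-212-5p was at place 8, miR-132-3p at 17 and miR-132-5p at 45, where the median fall was -0.48 on the log2 scale. Among 236 miRNAs at a level like theirs, from 3.61 to 67.3 CPM, 23 were called lower and 49 higher.

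**Figure D2:**
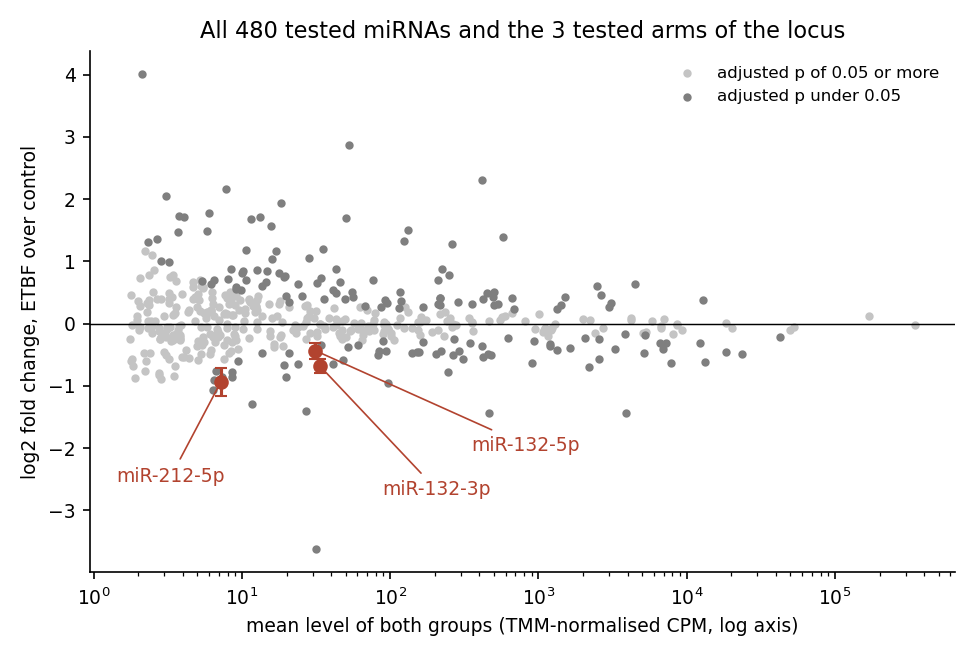
Log2 fold change (ETBF over control) against the mean level of both groups (TMM-normalised CPM, log axis) for the 480 tested miRNAs. Red points with SE bars are miR-132-3p (-0.68), miR-132-5p (-0.44) and miR-212-5p (-0.94). All 3 lie below 0 among other miRNAs that fell, and dark grey points passed the test.

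Falls were more frequent among miRNAs rich in G and C. Of the 417 tested miRNAs with a RefSeq sequence, 6 of 96 with at most 40% GC in the mature strand fell and 22 rose, whereas 17 of 74 above 60% GC fell and 6 rose. The 3 tested arms lie in the band above 40% and up to 50% GC, in which 26 of 165 fell and 34 rose. Removal of each library's trend with GC made the falls of the members larger, at -0.76 for miR-132-3p, -0.53 for miR-132-5p and -1.03 for miR-212-5p. The edgeR adjusted p-values were 4.42e-05, 0.00322 and 0.00158. The median log2 fold change over all tested miRNAs moved down too, from 0.01 to -0.04.

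By level, the 2 arms of miR-132 came first in both groups, with ranges that overlapped and with miR-132-5p the higher on average in ETBF libraries and miR-132-3p the higher in control libraries. MiR-212-5p followed, and miR-212-3p was lowest with a mean of 1.21 ± 0.655 CPM in ETBF libraries and 1.76 ± 0.374 CPM in control libraries. Neither of these steps overlapped within a group. A mature miRNA is read as 1 molecule per read, and the arms are 21 to 23 bases long, so levels were compared with no correction for length. The locus is minor in these cells: it held 909 of 15213932 counts with ETBF, or 0.00597%, and 2015 of 23080375 in controls, or 0.00873%. MiR-132-3p and miR-132-5p ranked at places 211 and 218 and miR-212-5p at place 333 of the 480 tested by mean level.

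The miR-132 hairpin gave nearly equal reads from both strands. The 5p arm made up 50.3% ± 6.45 of its reads in ETBF libraries and 46.6% ± 4.23 in control libraries (SD, n = 4 each). Both arms could be tested for 118 hairpins, and of these 0 had a log2 ratio of 5p to 3p, averaged over both groups, closer to 0 than miR-132. In control libraries alone miR-671, named after its values were seen, was nearer, at -0.182 against -0.196 for miR-132. Over pooled reads the 5p share of miR-132 was 51.2% with ETBF (416 of 812, 95% exact binomial interval 47.7 to 54.7) and 46.4% in controls (816 of 1760, 44.0 to 48.7). The median share of the less abundant arm over those hairpins was 7.55%, against 47.9% for miR-132 over all 8 libraries. The replicates numbered 4 had the lowest 5p share in each group, 41.5% with ETBF (95% exact binomial interval 33.1 to 50.3) and 41.3% in controls (37.1 to 45.6). In the other libraries it was 50.2% to 56.6% with ETBF and 46.7% to 51.7% in controls. In both replicate 4 libraries miR-132-3p was the highest and miR-132-5p the lowest of its group. The sum of both arms was 52.4 ± 2.63 CPM in ETBF libraries and 77.5 ± 2.61 CPM in control libraries.

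A change in the use of the strands was not detected. The log2 ratio of 5p to 3p reads of miR-132 averaged 0.02 with ETBF and -0.20 in controls, a difference of 0.21 (SE 0.21, limma adjusted p = 0.438 over 118 hairpins), while 32.2% of hairpins passed that test. Both arms were called lower for 7 of the 118 hairpins, namely those of miR-132, miR-210, miR-28, miR-330, miR-423, miR-574 and miR-671, both were called higher for 6, and 8 had arms called in opposite directions. The 6 hairpins other than miR-132 were named after their values were seen. For miR-212 the 5p share was 79.7% ± 8.77 with ETBF and 84.4% ± 2.63 in controls, with overlapping groups. Its difference in the log2 ratio of 5p to 3p was -0.45 (SE 0.38, limma adjusted p = 0.441) when hairpins were required only to have a count of both arms in every library, which gave 161 hairpins.

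**Figure D3:**
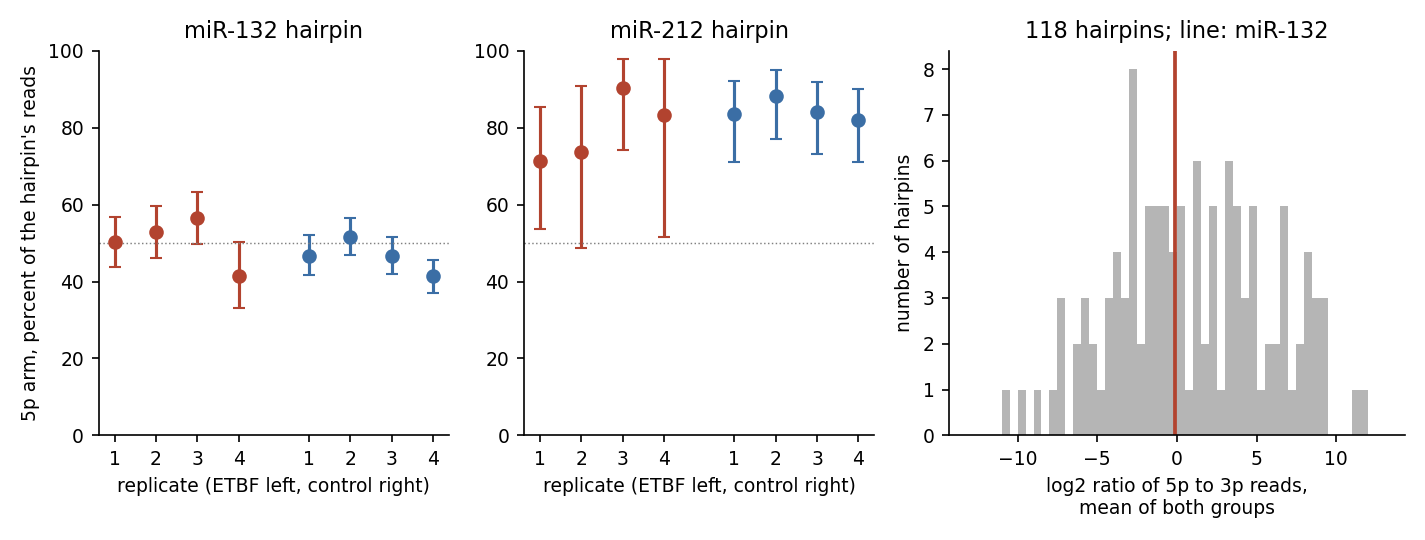
Share of the 5p arm in the reads of the miR-132 and miR-212 hairpins by library (percent, points with 95% exact binomial intervals; ETBF red, control blue, dotted line at equal use), and the distribution of the log2 ratio of 5p to 3p reads over 118 hairpins. The red line marks miR-132, whose ratio averaged over both groups lies nearest to 0.

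The 2 hairpins were compared through matching arms. The log2 ratio of miR-212-5p to miR-132-5p was -2.23, -3.02, -2.13 and -2.43 in ETBF replicates 1 to 4, against -1.90, -2.13, -1.73 and -1.88 in control replicates 1 to 4. Only ETBF replicate 3 reached into the control range, just above control replicate 2. The means were -2.45 ± 0.40 with ETBF and -1.91 ± 0.17 in controls, a difference of -0.54 (two-sided exact permutation p = 0.0571, adjusted p = 0.114 over the 2 ratios; the smallest p of this design is 0.0286). Between the 3p arms that share the seed, the ratio of miR-212-3p to miR-132-3p averaged -4.38 ± 0.66 with ETBF and -4.50 ± 0.25 in controls, a difference of 0.13 (exact permutation p = 0.771, adjusted p = 0.771) whose sign turned without ETBF replicate 1, at -0.17. MiR-212-3p supplied 4.81% of the reads with the shared seed with ETBF (20 of 416, 95% exact binomial interval 2.96 to 7.33) and 4.07% in controls (40 of 984, 2.92 to 5.49). Nearly all reads carrying this seed were therefore miR-132-3p in both groups.

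A list of other miRNAs with hairpins on the short arm of chromosome 17 included calls in both directions. The list was drawn up from general knowledge and does not hold every hairpin of this arm. Of 18 names, 17 were in the files and 11 could be tested: 3 rose, 2 fell and 6 did not pass, with a median log2 fold change of 0.22, against 0.01 over all 480, of which 34.4% were called and 14.6% called lower. With upper-quartile scaling 2 rose and 3 fell. MiR-22-3p, made from its own host transcript MIR22HG, fell to 393 ± 34.8 CPM in ETBF libraries, against 557 ± 73.4 CPM in control libraries (log2 fold change -0.50, SE 0.10, edgeR adjusted p = 0.000684). MiR-744-5p, from an intron of MAP2K4, also fell (-0.27, SE 0.08, adjusted p = 0.0119), but missed the threshold once the GC trend was taken out, at -0.19 without the replicate block (adjusted p = 0.0585) and with it (adjusted p = 0.0905). MiR-4521 rose more than any other of the list (2.31, SE 0.09). The other 2 that rose were the low miR-33b-3p, from an intron of the sterol regulator gene SREBF1 (0.68, SE 0.24, adjusted p = 0.0412, a call lost in 10 of 18 alternatives with adjusted p up to 0.638), and miR-195-3p (1.72, SE 0.27), which was named after its values were seen.

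Few miRNAs linked to CREB, cAMP or neuronal activity could be tested. Of 11 names these were 4, and 0 passed with edgeR, DESeq2 or limma-voom, too few to set against the 34.4% called over all tested. With edgeR 2 of the 4 had an unadjusted p under 0.05, as had 209 of all 480 tested. These 2, named after their values were seen, moved in opposite directions. MiR-34c-5p was at 0.61 (SE 0.23, edgeR adjusted p = 0.0508) and miR-184 at -0.79 (SE 0.31, adjusted p = 0.0578). The median log2 fold change was 0.07, against 0.01 over all tested, and turned to -0.02 with upper-quartile scaling and -0.07 after GC removal. In each of these 2 settings, and with RLE scaling, 1 of the 4 was called lower, while with total-count scaling 1 was called higher. MiR-9-5p, a miRNA of the nervous system that was abundant here, was at 8492 ± 854 CPM in ETBF libraries and 8652 ± 910 CPM in control libraries (-0.03, SE 0.09, adjusted p = 0.842), with a sign that turned with total-count scaling. Its partner miR-9-3p was at 704 ± 55.6 CPM in ETBF libraries and 629 ± 43.2 CPM in control libraries (0.16, SE 0.08, adjusted p = 0.121). MiRNAs that endotoxin induces in monocytes or macrophages included calls in both directions. Of 14 names 9 could be tested: 1 rose, 3 fell and 5 did not pass, with a median log2 fold change of -0.09, against 34.4% called, 14.6% called lower and a median of 0.01 over all tested. MiR-21-3p rose (1.40, SE 0.08). Its far more abundant partner miR-21-5p, on the same list but named after its values were seen, did not pass (-0.02, SE 0.07, edgeR adjusted p = 0.842). MiR-146b-5p, a brake on NF-kB signalling (-0.49, SE 0.09), miR-125a-5p (-0.40, SE 0.12) and miR-99b-5p (-0.24, SE 0.09, adjusted p = 0.0422) fell, and the miR-99b-5p call was lost in 8 of 19 alternatives, with adjusted p up to 0.162. The miR-125a-5p call (adjusted p = 0.0132) was lost without control replicate 3 (adjusted p = 0.0519).

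The miRNAs whose profile over the 8 libraries was most like that of the summed locus were miR-135b-5p, which represses the tumour suppressor APC in colorectal cancer, miR-375, an endocrine and epithelial miRNA, miR-26a-5p, miR-301b and miR-30d-5p. Likeness was measured as the root mean square difference between centred log2 levels, and ran from 0.0812 to 0.103 for these 5, against a median of 0.348 over the 292 candidates with at least 10 CPM. Each of the 5 fell, with log2 fold changes between -0.66 and -0.49, which the choice by likeness brings with it. The call of miR-301b was lost in the first thinned draw, at -0.40 (edgeR adjusted p = 0.127), against -0.66 with all reads. MiR-135b-5p was at 347 ± 17.7 CPM in ETBF libraries and 504 ± 47.8 CPM in control libraries. The set was not stable: 1 of the 5 stayed among the 5 nearest in the first thinned draw, and 2 stayed without ETBF replicate 4. Leaving out ETBF replicate 1, ETBF replicate 3, control replicate 1 or control replicate 2 kept 3 of the 5.

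**Figure D4:**
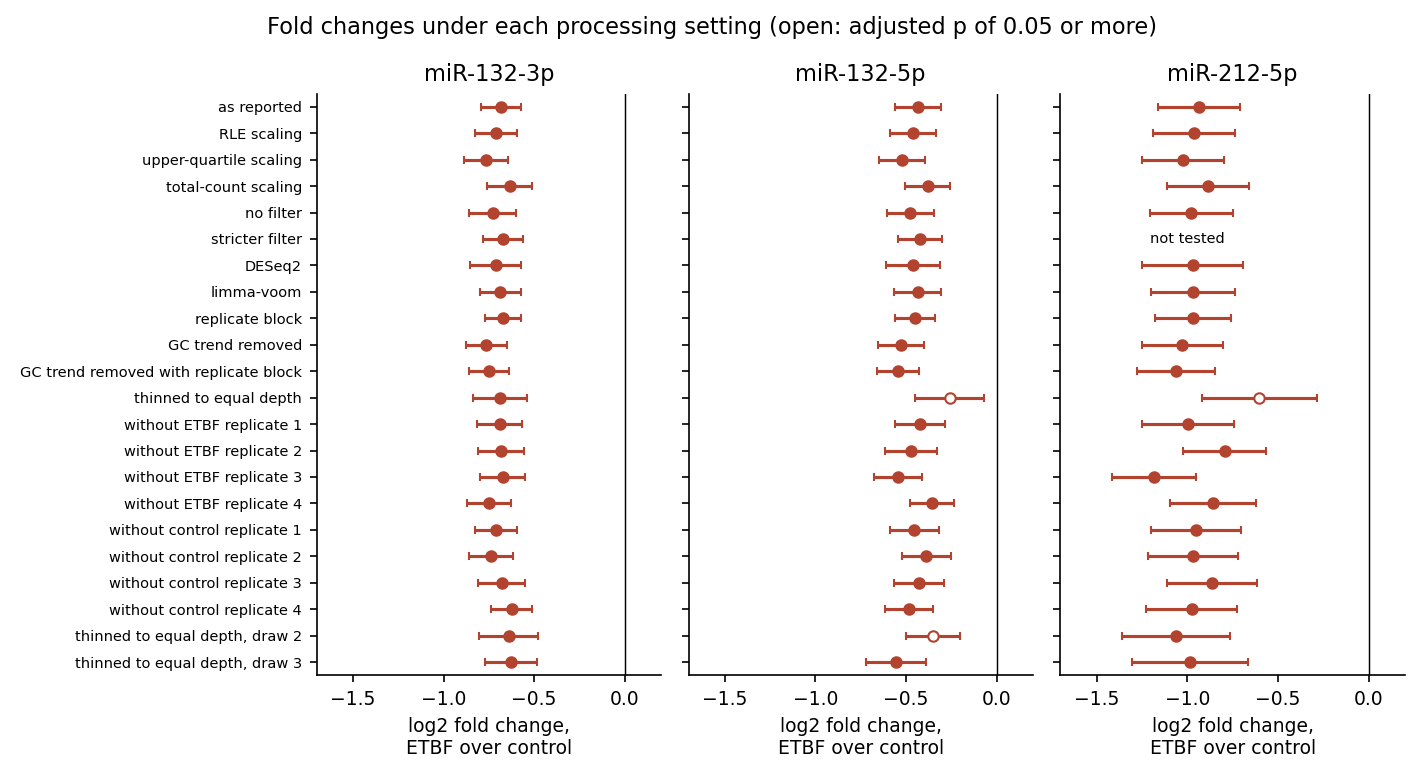
Log2 fold change (ETBF over control) with SE bars for the 3 tested arms under each processing setting. Filled points have an adjusted p under 0.05. All values are below 0, and the open points are the thinned draw at -0.26 and -0.60 and the second draw at -0.35.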

How the data were processed

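Small RNA of 4 ETBF and 4 control libraries was measured. What the authors deposited is, for each library, a file of unnormalised read counts listed by mature miRNA. Per the submitters' processing notes, Trimmomatic, FastQC and featureCounts were used with GRCh37.p5; for tool versions, aligner, miRNA annotation and strandedness nothing is given in the sources used here. Libraries were grouped by title. Within groups, chi-square per degree of freedom was 22.5 to 139, so no library was a copy of another. Counts were tested as deposited with edgeR 4.0.16 in R 4.3.3 (quasi-likelihood F test, TMM factors, filterByExpr with minimum count 10, two-sided, Benjamini-Hochberg adjustment over 480 miRNAs, threshold 0.05). Each SE was obtained as the absolute log2 fold change over the root of F. Arm ratios were tested with limma 3.58.1 on log2 ratios after adding 0.5 to each count. Ratios between hairpins were tested by exact permutation over 70 arrangements.

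Alternatives were RLE, upper-quartile and total-count scaling, no filter, a minimum count of 50, DESeq2 1.42.0, limma-voom, a replicate block, removal of the trend with GC content of the mature strand (loess; 86.9% of tested miRNAs had a RefSeq sequence), thinning to 2591655 counts and leaving out each library. The tests across all miRNAs and hairpins were tested on simulated data. Intervals and detection limits cover counting error only: PCR copies were not marked by molecular identifiers, so reads need not be separate molecules. Members and lists were chosen with earlier results of these data known. Names given in the text are the 4 members, the cell type markers, the 5 nearest profiles and, from each other list, the members past the threshold. These were at most 4 per list, taken by abundance, or the 2 of highest level where none was past it. Others are said to be chosen after their values were seen. Same-numbered libraries were not treated as pairs.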

Additional observations from a re-analysis of the deposited data

Results flagged for a closer look

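Within the 4 control libraries, miR-212-5p stood out in 1 library. Control replicate 3 was at 11.0 CPM and the other 3 at 8.80 to 9.16 CPM, so that the gap to its nearest neighbour was 0.839 of the whole range. Of 18 groups of 4 libraries examined in this way, 1 was marked, and chance marks about 1 in 20. Without control replicate 3 the log2 fold change of miR-212-5p was -0.86 (edgeR adjusted p = 0.0141), against -0.94 with it.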

How the results depend on the processing

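Of the values tested under edgeR, miR-132-3p kept its call and direction throughout (-0.77 to -0.62 over 21 settings). MiR-132-5p lost its call in the thinned draw (-0.26) and the second draw (-0.35), and miR-212-5p in the thinned draw (-0.60). Draws 2 and 3 were added after seeing the data and were read for the tested arms only. All other values after thinning therefore rest on the first draw. Without each library in turn miR-132-5p ranged from -0.54 to -0.36 and miR-212-5p from -1.18 to -0.79. MiR-212-5p could not be fitted under the stricter filter, having too few reads. The log2 ratio of the summed locus was -0.60, -0.69 with upper-quartile scaling and -0.50 in the first thinned draw. Without each library miR-212-3p ranged from -0.98 to -0.38 and the difference in the ratio of miR-212-3p to miR-132-3p from -0.17 to 0.33. MiR-9-5p was at 0.028 with total-count scaling and between -0.105 and 0.023 without each library. Calls over all miRNAs numbered 165, and 130 to 171 in the alternatives. Neighbours on 17p called fell to 3 with the stricter filter, in which 4 were tested. In the CREB list 1 member was called lower with RLE and upper-quartile scaling, after GC removal without the replicate block and without ETBF replicate 3. In the opposite direction, 1 member was called higher with total-count scaling, after thinning and without ETBF replicate 1. Between 0 and 1 passed over all left-out libraries. Of the 5 nearest profiles 1 remained after thinning and 2 to 4 without each library. The cause of these shifts was not tested.

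Over all tested miRNAs, same-numbered libraries did not deviate together (correlations of their deviations from the group means between -0.06 and 0.06). In this measure 0 of 4 ETBF libraries correlated best with its own number. Among the tested arms of the locus, only replicate 3 of miR-132-3p and replicate 1 of miR-212-5p had deviations of opposite sign in ETBF and control libraries. The log2 deviations of replicate 4 were 0.19 and 0.17 for miR-132-3p and -0.32 and -0.14 for miR-132-5p, ETBF first. With the replicate block miR-132-3p was at -0.67 (adjusted p = 0.000604), miR-132-5p at -0.45 (adjusted p = 0.0101) and miR-212-5p at -0.97 (adjusted p = 0.00483), and 159 miRNAs were called. With the block the differences in arm ratio were 0.21 and -0.45 and those between hairpins 0.13 and -0.54, and miR-212-3p, tested without the filter, was at -0.55. Depth limits miR-212-3p most, at 2 to 13 reads a library.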
